A study of Bos taurus with 14 samples.

Results

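The comparison described here is the approach to calving in cows kept on short days: mammary tissue taken 9 days before calving was set against tissue taken 24 days before calving. It rests on 7 of the 14 arrays of the study, 3 at day -24 and 4 at day -9, and covers all 24016 probe sets that are no array controls. The tissue came by biopsy from Holstein dairy cows in the dry period, the weeks in which milking has stopped. Milking had ended about 60 days before the predicted calving date, and each cow was put at random on 1 light schedule for the whole dry period. Short days (SD) had 8 h of light and 16 h of dark, and long days (LD) had 16 h of light and 8 h of dark. The other 7 arrays, 3 at day -24 and 4 at day -9, came from cows on long days and share no array with the short-day comparison. The labels give no age or parity, and leave unsaid whether 1 cow could give a biopsy at both days or whether each array is a separate cow. The p-values therefore measure the spread between these arrays only.

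In the last weeks before calving the mammary epithelium of the cow first multiplies and then turns to secretion. Prolactin, acting through its receptor and STAT5, works with glucocorticoids to switch on the casein and alpha-lactalbumin genes as progesterone declines, and the gland fills with colostrum. Short days in the dry period lower circulating prolactin, and the gland's prolactin receptor is known to be higher under them.

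All values are log2 signals. A difference is the mean at day -9 minus the mean at day -24, positive where day -9 is higher, and it is given with its standard error (SE) or 95% interval from the fit of all 14 arrays. No probe set passed an adjusted p of 0.05 in the short-day comparison: limma's smallest adjusted p was 0.970, and percent called was 0. At an unadjusted p under 0.05, 632 probe sets were higher (2.63%) and 464 lower (1.93%) at day -9, together 4.56% of those tested. With arrays centred on their medians that split was 437 higher and 689 lower. The day -9 and day -24 values did not overlap for 1416 probe sets, or 5.90%. The same tests made 0 adjusted calls in long days (1795 probe sets at an unadjusted p under 0.05, 7.47%; smallest adjusted p 0.478) and 0 for the difference between both photoperiods (997 probe sets, 4.15%; smallest adjusted p 0.900). Every gene below is therefore given by its values, and none is called. Of the 9155 named genes, 42.3% lay above 0 in short days (median -0.03) and 59.9% in long days (median 0.06). Counts of genes above 0 stand beside these shares.

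Single arrays stood apart before any gene was considered. On the first principal component of the short-day arrays, which held 33.6% of the variance, SD day -24 replicate 3 lay at -50.0 and SD day -9 replicate 1 at 50.4, with the other arrays between -7.31 and 15.3. A set of 280 probe sets lay at least 0.7 below every other array in SD day -24 replicate 3 as well as LD day -9 replicate 4, and 21 of the 632 higher probe sets are among them. The 3-prime minus 5-prime signal of control transcripts is a sign of RNA degradation. Over 5 of the 6 transcripts, without actin, it averaged 0.98, 1.26 and 1.33 at day -24. At day -9 it averaged 0.93, 0.99, 0.94 and 0.84. SD day -24 replicate 1 alone overlapped the day -9 values (difference -0.27, two-sided exact permutation p = 0.0571 over 35 arrangements, which allow no p below 0.0286; adjusted p = 0.200 over 7 such tests). Of the single transcripts EIF4E differed by -0.79, EF1A by -0.22, GAPDH by -0.20, GST by -0.14 and cyclophilin by 0.03. EIF4E thus held the largest part of the mean difference. Actin, left out of the mean, read 0.80, 0.22 and 0.43 against 0.35, 0.42, 0.04 and 0.23 (difference -0.23). A mean over all 6 transcripts was not tested. Whether RNA quality takes part in the differences below was not tested.

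The largest shift of a gene list lay in the cell cycle. Of 27 measured genes of mitosis and the cyclins, 26 were below 0 at day -9, with a median difference of -0.88, against a median of -0.03 over all 9155 named genes. At an unadjusted p under 0.05, 13 of the 27 were lower and 0 higher, beside 2.21% of all genes lower and 1.42% higher. These genes move together from array to array, so that their number adds little to the number of arrays. In bulk tissue, fewer dividing cells and less RNA per dividing cell cannot be told apart.

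CCNE2, cyclin E2, drives entry into DNA synthesis. It read 6.72, 6.23 and 6.57 in the day -24 arrays and 4.44, 6.05, 5.51 and 5.67 in the day -9 arrays (difference -1.09, SE 0.32). It was the single gene of the 27 whose groups did not overlap, near the 3.21% of all genes that lay lower at day -9 without overlap. BUB1, a kinase of the spindle checkpoint, read 8.97, 7.51 and 8.87 at day -24 and 5.68, 7.92, 8.08 and 7.29 at day -9 (difference -1.20, SE 0.49). NUSAP1, which binds spindle microtubules, read 9.08, 7.70 and 8.89 at day -24 and 5.87, 7.95, 8.10 and 7.74 at day -9 (difference -1.14, SE 0.46). In both genes SD day -9 replicate 1 was by far the lowest array, and SD day -24 replicate 2 lay among the day -9 values.

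AURKB, the kinase of the chromosomal passenger complex, read 8.10, 7.33 and 8.71 at day -24 and 5.92, 7.54, 7.70 and 7.06 at day -9 (difference -0.99, SE 0.40). MAD2L1, another spindle checkpoint protein, read 8.28, 6.80 and 7.65 at day -24 and 5.52, 6.99, 7.27 and 6.66 at day -9 (difference -0.96, SE 0.37). In both, SD day -9 replicate 1 was again the lowest array and SD day -24 replicate 2 lay among the day -9 values. The list score, the mean over members after centring each gene on its mean of 14 arrays, was 0.82, -0.32 and 0.74 at day -24 and -1.54, 0.01, 0.22 and -0.30 at day -9.

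**Figure D1:**
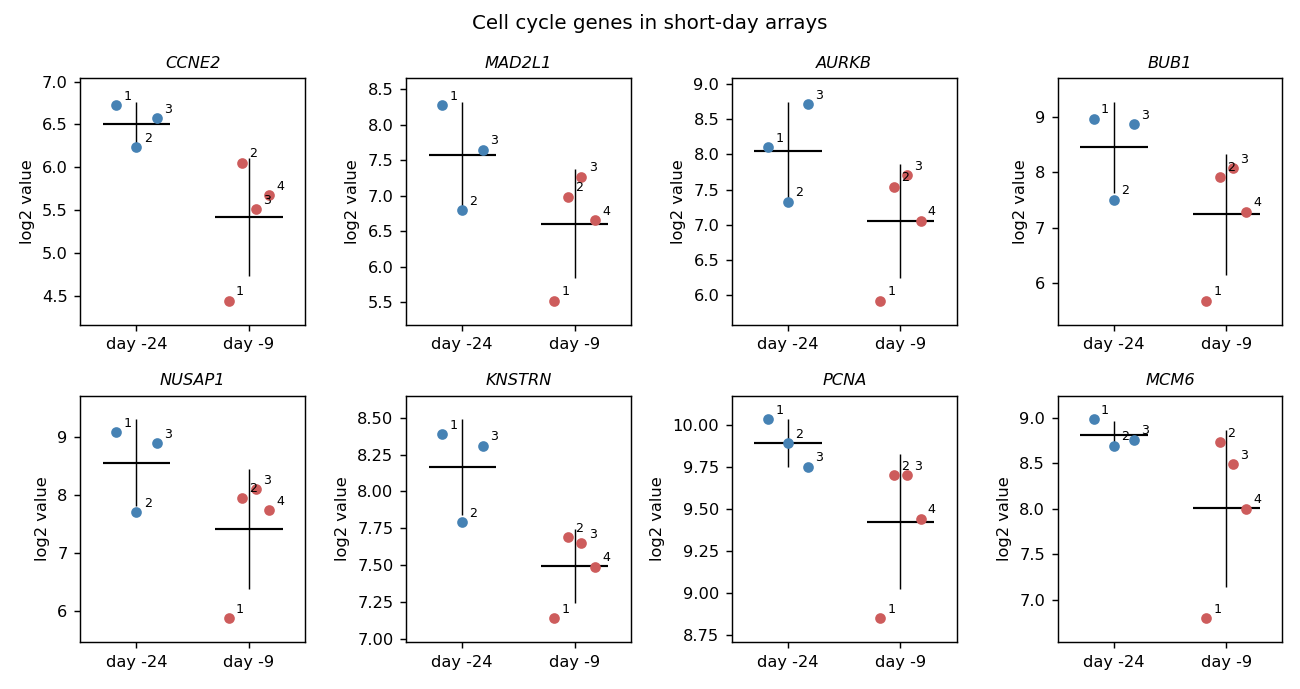
Log2 values of 8 cell cycle genes in the short-day arrays, with day -24 in blue and day -9 in red. Numbers are replicate numbers, horizontal bars group means and vertical bars 1 standard deviation; panels have their own scales, and SD day -9 replicate 1 is the lowest point in each panel.

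Without SD day -9 replicate 1 the median of the mitosis list was -0.44, with 26 of 27 still below 0 and 1 gene at an unadjusted p under 0.05. BUB1 then differed by -0.68, NUSAP1 by -0.63, AURKB by -0.61 and MAD2L1 by -0.60. Without SD day -24 replicate 2 the median was -1.29 and 23 genes passed that p. The count was also 1 when SD day -24 replicate 1 or replicate 3 was left out, and in a fit of the 7 short-day arrays alone, where the spread is estimated from those arrays. With SD day -24 replicate 3 and SD day -9 replicate 1 both left out, the median was -0.28 and 24 of 27 genes were below 0.

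Genes of DNA replication lay on the same side with smaller differences. Of 24 measured, 23 were below 0, with a median of -0.43, and 2 were lower at an unadjusted p under 0.05, beside 2.21% of all genes. That count was 0 in the 7 short-day arrays alone, with replicate numbers as a block, and without SD day -9 replicate 1 or SD day -24 replicate 1. PCNA, the sliding clamp of DNA polymerase, read 10.03, 9.89 and 9.75 at day -24 and 8.85, 9.70, 9.70 and 9.44 at day -9, with no overlap (difference -0.47, SE 0.20). MCM6, a subunit of the replicative helicase, read 8.98, 8.69 and 8.76 at day -24 and 6.80, 8.73, 8.49 and 8.00 at day -9 (difference -0.80, SE 0.36), and SD day -9 replicate 2 overlapped the day -24 values. RRM2, which makes deoxynucleotides, differed by -0.68, UHRF1, which carries DNA methylation through replication, by -0.78, and the origin licensing factor CDT1 by -0.47. PCNA differed by -0.28 and MCM6 by -0.40 without SD day -9 replicate 1. Leaving out that array gave a list median of -0.16, and leaving out SD day -24 replicate 3 gave -0.28. With both of those arrays left out it was 0.01, with 12 genes above 0 and 12 below.

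Under long days the mitosis list lay on the other side: 25 of 27 genes were above 0 from day -24 to day -9, with a median of 0.26. In long days 59.9% of all genes lay above 0, with a median of 0.06. At an unadjusted p under 0.05, 1 of the 27 was higher there, beside 4.89% of all genes. The long-day list scores overlapped, at -0.21, -0.12 and 0.08 at day -24 and 0.09, -0.13, 0.35 and 0.31 at day -9. The median of the difference between both photoperiods was -1.11, against -0.09 over all genes. For it 6 of the 27 genes had an unadjusted p under 0.05, beside 3.58% of all genes, with 0 after adjustment. NUSAP1 differed by 0.29 in long days, BUB1 by 0.19 and AURKB by 0.16, while CCNE2 differed by -0.30. For DNA replication the long-day median was -0.10 with 15 of 24 below 0, and PCNA differed by -0.48, close to its short-day value.

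Milk protein genes were above 0 as a list. All 9 measured genes were higher at day -9 on average, with a median of 0.34, and 3 of the 9 had an unadjusted p under 0.05, beside 1.42% of all genes. LPO encodes lactoperoxidase, an antibacterial enzyme of milk. Its signal was 3.86, 3.17 and 3.80 at day -24, below the lower quartile of each array (4.47 to 4.73), and 10.78, 5.17, 7.90 and 5.93 at day -9. The groups did not overlap, and every day -9 array lay above that quartile. The fitted difference was 3.83 (95% interval 1.08 to 6.58), with limma's adjusted p at 0.970, and without SD day -9 replicate 1 it was 2.72. With day -24 signals that dim, its size is not exact, and no fold is given. In long days LPO differed by 2.74.

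CSN1S2, the alpha-S2-casein gene, read 12.53, 11.52 and 11.67 at day -24 and 12.89, 11.94, 12.66 and 12.58 at day -9 (difference 0.61, SE 0.26). GLYCAM1, a mucin-type glycoprotein of milk, read 12.67, 12.19 and 11.28 at day -24 and 13.26, 12.44, 12.69 and 12.96 at day -9 (difference 0.79, SE 0.35). LALBA, alpha-lactalbumin, the regulatory subunit of lactose synthase, read 12.98, 11.81 and 12.22 at day -24 and 13.38, 12.50, 12.93 and 13.10 at day -9 (difference 0.64, SE 0.33). In each of the 3 genes SD day -24 replicate 1 lay among the day -9 values, so the groups overlapped. The LALBA difference was 0.38 without SD day -24 replicate 2. The GLYCAM1 difference was 0.40 without SD day -24 replicate 3 and 0.26 with SD day -9 replicate 1 left out as well.

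For the caseins CSN2, CSN3 and CSN1S1 and for beta-lactoglobulin the intervals of the difference spanned 0 in the probe set of highest mean. CSN2, beta-casein, read 12.87, 12.71 and 12.57 at day -24 and 13.06, 12.72, 12.84 and 12.82 at day -9 (difference 0.14, 95% interval -0.15 to 0.44). The other CSN2 probe sets, which are dimmer, differed by 0.29 and 0.57. CSN3, kappa-casein, differed by 0.07 (-0.22 to 0.35), CSN1S1, alpha-S1-casein, by 0.05 (-0.30 to 0.41) and PAEP, beta-lactoglobulin, by 0.02 (-0.19 to 0.23). PAEP lay between 13.62 and 13.81 on arrays whose highest value was 14.0. LTF, lactoferrin, an iron-binding protein of milk and of the dry gland, read 11.54, 12.35 and 12.61 at day -24 and 13.38, 12.29, 12.25 and 12.12 at day -9 (difference 0.34, -0.46 to 1.15). SD day -9 replicate 1 was the highest array, and the other day -9 arrays lay within the day -24 range. The second LTF probe set differed by 0.65.

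**Figure D2:**
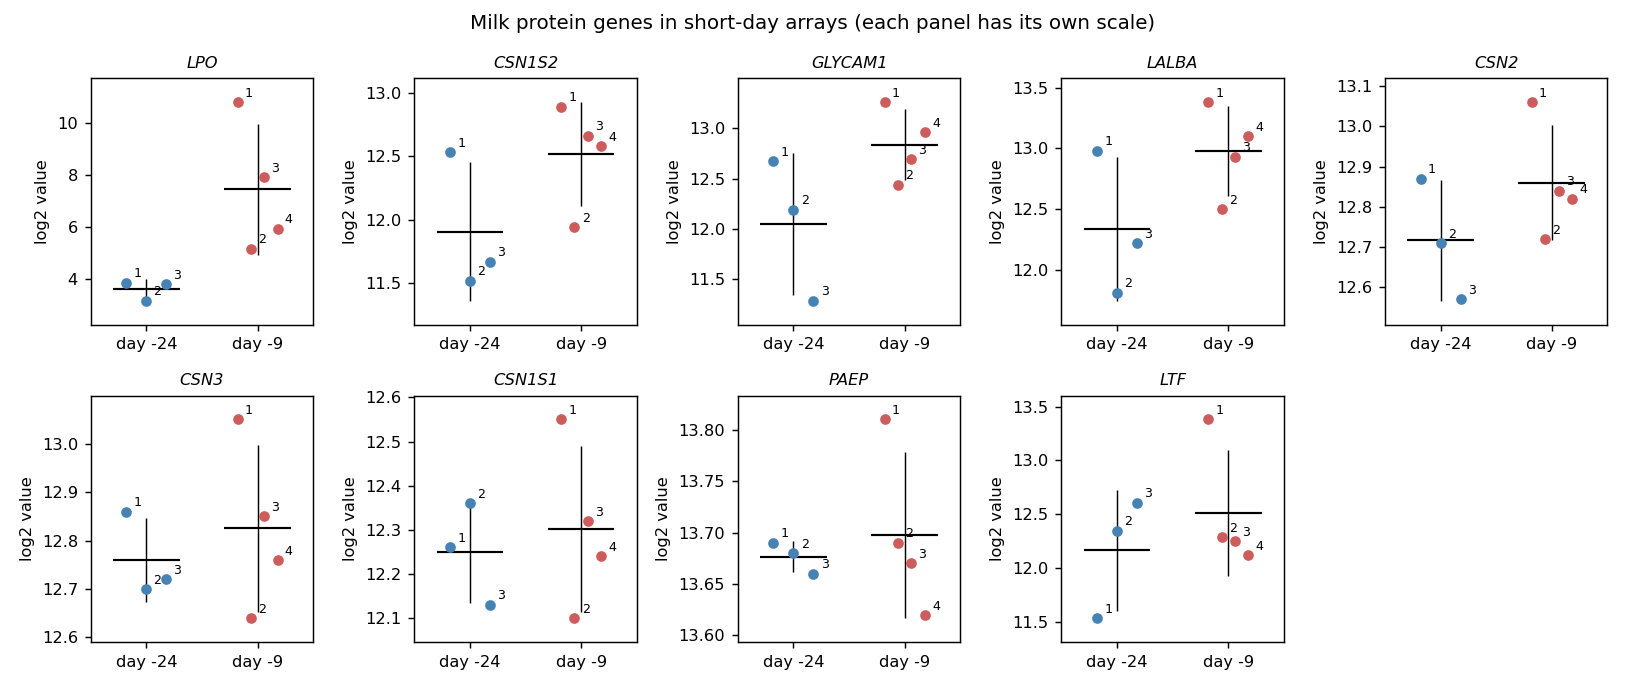
Log2 values of the 9 measured milk protein genes in the short-day arrays, with day -24 in blue and day -9 in red. Numbers are replicate numbers, horizontal bars group means and vertical bars 1 standard deviation; LPO spans 3.17 to 10.78 while PAEP spans 13.62 to 13.81, so each panel has its own scale.

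Without SD day -9 replicate 1 the median of the milk protein list was 0.08 and 6 of 9 genes were above 0. It was 0.22 without SD day -24 replicate 1. The 3 genes at an unadjusted p under 0.05 became 1 without SD day -24 replicate 2 or 3, without SD day -9 replicate 1, 3 or 4, with limma's array weights and with median centring. In long days 5 of 9 were above 0, with a median of 0.13 and 0 genes at an unadjusted p under 0.05. LALBA differed there by 0.55, GLYCAM1 by 0.63, CSN1S2 by 0.13 and LTF by 0.68.

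Genes that coat and release the milk fat globule were also above 0, 10 of 11, with a median of 0.32, and none had an unadjusted p under 0.05. MUC15, a mucin of the globule membrane, read 11.02, 9.88 and 10.82 at day -24 and 11.83, 10.67, 10.97 and 11.19 at day -9 (difference 0.59, SE 0.32). MUC1 read 9.94, 7.34 and 8.22 at day -24 and 10.88, 8.17, 8.74 and 10.65 at day -9 (difference 1.11, SE 0.72). CIDEA, a protein of lipid droplets, read 8.86, 6.00 and 7.12 at day -24 and 10.44, 7.29, 7.69 and 8.72 at day -9 (difference 1.21, SE 0.76). In the 3 genes SD day -24 replicate 1 was as high as day -9 arrays and replicate 2 was the lowest array. Without replicate 2 MUC15 differed by 0.25, MUC1 by 0.52 and CIDEA by 0.54. ABCG2, the transporter that carries riboflavin into milk, differed by 0.90 (SE 0.54), or 0.35 without that array, and the phosphate carrier SLC34A2 by 0.70 (SE 0.50). Leaving out SD day -24 replicate 2 gave a list median of 0.12, and leaving out replicate 1 of that day gave 0.55. In long days it was 0.18.

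Milk fat synthesis as a whole was near the background, with 17 of 28 genes above 0 and a median of 0.06. At an unadjusted p under 0.05, 1 gene was lower, beside 2.21% of all genes. That gene was ACLY, which makes cytosolic acetyl-CoA from citrate, at 9.73 to 10.03 at day -24 and 9.64, 9.69, 9.78 and 9.47 at day -9 (difference -0.28, SE 0.13). The named genes of fatty acid uptake lay above 0. They were named as list members of smallest p, so they do not stand for all uptake genes. FABP3, the fatty acid carrier of lactating epithelium, read 12.82, 10.61 and 12.30 at day -24 and 13.29, 12.22, 12.63 and 13.00 at day -9 (difference 0.87, SE 0.45), or 0.22 without SD day -24 replicate 2. LPL, lipoprotein lipase, read 10.44, 8.74 and 8.92 at day -24 and 11.34, 9.70, 9.80 and 9.85 at day -9 (difference 0.81, SE 0.46). The lipoprotein receptor VLDLR differed by 0.55. LPL differed by 0.42 and VLDLR by 0.29 without SD day -9 replicate 1. DGAT2, which forms triglyceride, read 3.36, 2.97 and 3.10 against 3.09, 3.56, 5.07 and 3.35, with 1 array above the lower quartile.

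Lactose synthesis and glucose entry had a median of -0.03, with 4 of 9 genes above 0, and 0.29 in long days with 7 of 9. UGP2, which makes UDP-glucose, differed by 0.26, the UDP-galactose carrier SLC35A2 by 0.22 and the glucose transporter SLC2A1 by 0.15, while HK1 differed by -0.25 and GALK1 by -0.31. Cholesterol synthesis had a median of -0.06, with 5 of 15 above 0, but of 0.07 without SD day -24 replicate 3 (10 of 15 above) and 0.03 with limma's array weights (11 of 15). Amino acid transport and synthesis had a median of 0.18, with 9 of 13 above 0. At an unadjusted p under 0.05, 1 was higher, beside 1.42% of all genes. SLC7A1, the carrier of lysine and arginine, read 5.33, 5.03 and 5.17 at day -24 and 5.73, 5.36, 5.49 and 5.58 at day -9, with no overlap (difference 0.36, SE 0.13). In long days it differed by -0.27. PHGDH, the first enzyme of serine synthesis, differed by -0.69, with SD day -9 replicate 1 the lowest at 7.03. Leaving out SD day -24 replicate 2 gave a list median of -0.08, and leaving out SD day -9 replicate 1 gave 0.04. Genes of protein folding and export from the endoplasmic reticulum had a median of 0.02 with 15 of 25 above 0, and the chaperone gene CALR differed by 0.60 (SE 0.30), against -0.35 in long days.

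For the hormone receptors the intervals of the difference spanned 0. PRLR, the prolactin receptor, read 9.91, 9.78 and 8.59 at day -24 and from 9.77 to 10.38 in the 4 arrays at day -9 (difference 0.59, 95% interval -0.23 to 1.42). Without SD day -24 replicate 3 the difference was 0.17, and PRLR is among the 280 probe sets that were low in that array. In long days it was -0.44, where LD day -9 replicate 4, the other low array, read 8.49. Of 10 measured genes of prolactin and growth hormone signalling, 8 were above 0, with a median of 0.11 and 0 at an unadjusted p under 0.05. STAT3 read 11.34, 11.45 and 11.10 against 11.89, 11.49, 11.51 and 11.52, with no overlap (difference 0.31, SE 0.27). STAT5B differed by 0.12, SOCS2, a feedback inhibitor of the pathway, by 0.16, CISH by 0.06 and SOCS3 by -0.07. The phosphatase gene PTPN1 differed by 0.09 and the caveolin gene CAV1 by -0.02. Without SD day -24 replicate 3 the list median was -0.01, with 5 genes on each side. ELF5, the transcription factor of secretory epithelium, lay between 12.35 and 12.68 in the 7 arrays (difference 0.06). GHR, the growth hormone receptor, differed by 0.28 (SE 0.51), and 5 of its 11 probe sets were on that side.

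The IGF axis was divided, with 6 of 12 genes above 0 and a median of -0.01. IGFBP5, a binding protein that is abundant in involuting glands, read 7.92, 8.11 and 8.77 at day -24 and 9.80, 8.61, 8.57 and 8.52 at day -9 (difference 0.61, SE 0.29), and SD day -9 replicate 1 was more than 1 unit above the rest of its group. Without that array IGFBP5 differed by 0.30. IGF1 read 6.16, 6.03 and 4.36 against 5.30, 6.03, 5.95 and 6.05 (difference 0.32, SE 0.52), and it differed by -0.26 without SD day -24 replicate 3, where its probe set is among the 280 low ones. IGF2 differed by -0.01, IGF1R by 0.07, IGFBP3 by -0.35 and the insulin receptor INSR by 0.39. The remaining members, IGF2R, IGFBP1, IGFBP2, IGFBP4, IGFBP6 and IGFALS, lay between -0.14 and 0.14.

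Steroid hormone response had a median of -0.07, with 6 of 14 genes above 0 and 0 at an unadjusted p under 0.05. MYB, a transcription factor gene that responds to oestrogen, read 8.12, 9.12 and 11.09 at day -24 and 7.89, 8.84, 8.75 and 7.38 at day -9 (difference -1.23, SE 0.66). SD day -24 replicate 3 was the highest array, and without it MYB differed by -0.41. FKBP5, which glucocorticoid and progesterone receptors induce, differed by 0.50 (SE 0.29). NR3C1, the glucocorticoid receptor, differed by -0.18, PGR, the progesterone receptor, by -0.10 and PGRMC1 by -0.03. ESR1, the oestrogen receptor, lay between 2.89 and 3.18 in the 7 arrays, below the lower quartile, so that its difference of 0.14 is one between dim signals. CCND1 differed by 0.18, TAT by 0.38, HSD11B1 by 0.30 and TFF3 by 0.01, and AREG, CYP19A1, ESR2 and HSD17B1 lay between -0.33 and -0.10.

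Of the circadian clock 6 genes were measured, with a median of 0.24 and 4 above 0. BHLHE40, a repressor in the clock, read 8.84, 9.09 and 7.40 at day -24 and 9.64, 8.88, 8.74 and 9.47 at day -9 (difference 0.74, SE 0.36). It was 0.21 without SD day -24 replicate 3, and -0.46 in long days. RORA differed by 0.54, NFIL3 by 0.34, NR1D1 by 0.14 and CRY1 by -0.14. Of serotonin and calcium transport, 8 of 13 were above 0, with a median of 0.08. At an unadjusted p under 0.05, 1 was higher, beside 1.42% of all genes. That gene was not PTHLH, parathyroid hormone-related protein, which mobilises calcium for milk. PTHLH read 6.95, 6.67 and 6.09 at day -24 and 9.50, 7.17, 7.33 and 6.51 at day -9 (difference 1.06, SE 0.74), or 0.44 without SD day -9 replicate 1. ORAI1, the channel of store-operated calcium entry, has 2 probe sets. The brighter read 8.48, 7.91 and 8.68 at day -24 and 8.97, 8.41, 8.76 and 8.89 at day -9 (difference 0.40, SE 0.18). The dimmer read 5.30, 4.70 and 4.99 at day -24 and 5.82, 5.36, 5.66 and 5.78 at day -9, with no overlap (difference 0.65, SE 0.17).

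Immune genes went different ways. In innate defence and acute phase 24 of 39 genes were above 0, with a median of 0.22. At an unadjusted p under 0.05, 2 were higher and 4 lower, beside 1.42% and 2.21% of all genes. With only probe sets above the lower quartile of mean signal, 27 genes were left, 2 higher and 1 lower at that p. The 4 became 1 without SD day -24 replicate 1 or 3 and without SD day -9 replicate 2, 3 or 4. They also became 1 in the 7 short-day arrays alone, and 7 without SD day -9 replicate 1. Without that array the median was -0.19 with 14 above 0, and it was -0.11 with limma's array weights. The higher genes were LPO and LBP, the lipopolysaccharide-binding protein of the acute phase. LBP read 7.43, 7.64 and 8.50 at day -24 and 11.38, 8.37, 8.87 and 8.68 at day -9 (difference 1.47, SE 0.66), or 0.78 without SD day -9 replicate 1. In long days LBP differed by 1.43, and the list had a median of 0.65 with 29 of 39 above 0 and 9 genes higher at an unadjusted p under 0.05, beside 4.89% of all genes.

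Of the 4 lower genes, 3 are antibacterial proteins of granulocytes and epithelium that the naming rule takes. BPI, the bactericidal/permeability-increasing protein, read 7.28, 6.06 and 6.54 at day -24 and 5.20, 5.58, 5.33 and 6.14 at day -9 (difference -1.06, SE 0.26), with overlap in 1 array of each group. In long days it differed by 0.39. The beta-defensin gene DEFB10 read 5.96, 3.82 and 4.80 against 4.75, 3.12, 3.45 and 3.71 (difference -1.10, SE 0.48), and the cathelicidin gene CATHL6 5.46, 3.87 and 4.97 against 4.47, 3.76, 3.83 and 3.79 (difference -0.81, SE 0.35). Without SD day -24 replicate 1, DEFB10 differed by -0.55 and CATHL6 by -0.46. In SD day -9 replicates 2, 3 and 4 both lay below the lower quartile of each array (4.47 to 4.73). Their differences thus involve dim signals, and their sizes are not exact. Defensin and cathelicidin genes have close copies, so that their probe sets may share signal. Of 13 neutrophil markers 5 were above 0, with a median of -0.10. CATHL1 was the widest, at 8.15, 3.94 and 7.77 against 6.93, 3.17, 4.04 and 4.03 (difference -2.07, SE 1.12). The neutrophil score was 0.39, -0.53 and 0.18 at day -24 and 0.43, -0.75, -0.42 and -0.46 at day -9, and its part in the values of BPI, DEFB10 and CATHL6 was not tested.

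Interferon response genes were below 0 in 18 of 22 cases, with a median of -0.17, and of -0.19 in long days. The short-day median was -0.06 without SD day -24 replicate 3 (14 of 22 below 0), -0.07 without SD day -9 replicate 1, and -0.03 with limma's array weights (12 of 22 below). USP18, which removes the ubiquitin-like ISG15, read 7.87, 8.09 and 8.13 at day -24 and 7.69, 7.73, 7.70 and 7.26 at day -9, with no overlap (difference -0.43, SE 0.16). CXCL10, a chemokine that draws T cells, differed by -0.74 (SE 0.38), with SD day -9 replicate 1 lowest at 7.76, and by -0.37 without it. Immunoglobulin transport and antigen presentation had 15 of 21 genes below 0, with a median of -0.15. Without SD day -9 replicate 1 it was -0.04 (13 below), and without SD day -24 replicate 3 as well -0.02 (11 below). BOLA-DOA, a class II gene, read 6.61, 6.74 and 6.94 against 5.74, 6.36, 6.53 and 6.40, with no overlap (difference -0.51, SE 0.22), and BOLA-DMB differed by -0.44. Class II genes resemble each other, and their probe sets may share signal.

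**Figure D3:**
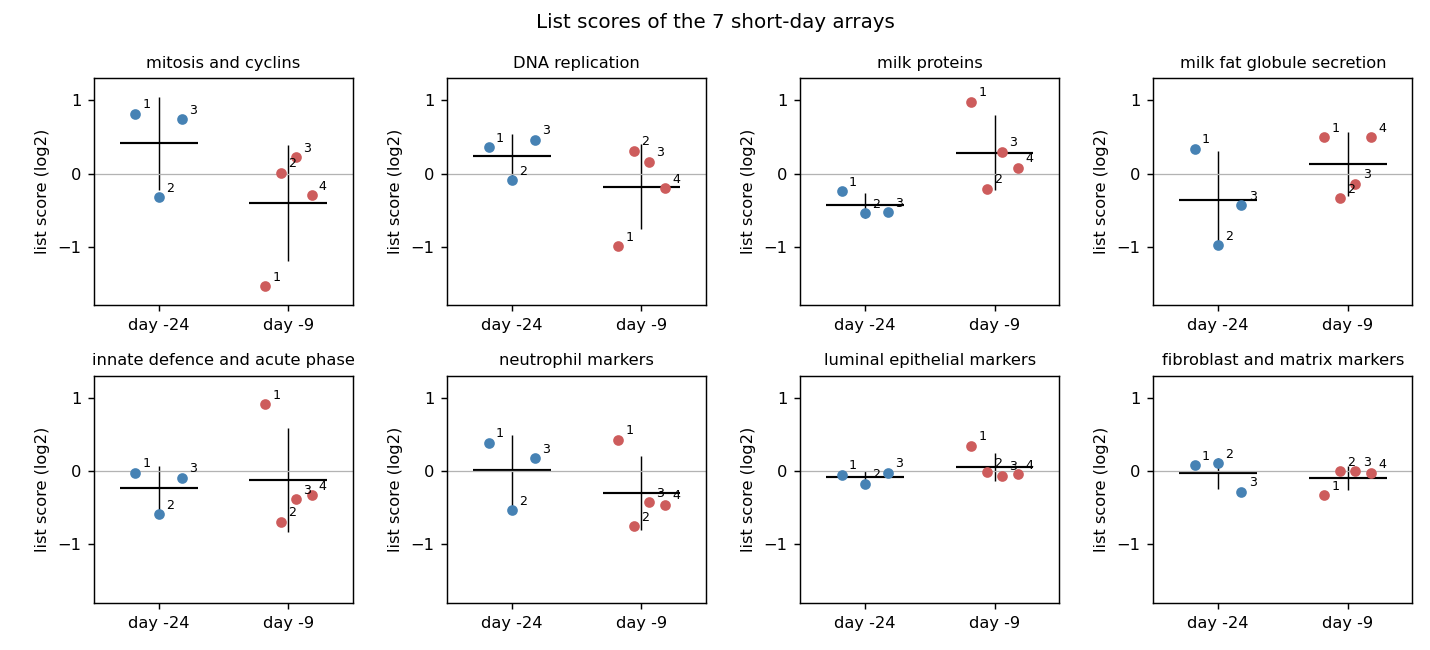
Scores of 8 gene lists in the short-day arrays (mean over members of log2 values centred per gene on 14 arrays), with day -24 in blue and day -9 in red. Numbers are replicate numbers, horizontal bars group means and vertical bars 1 standard deviation; SD day -9 replicate 1 lies at -1.54 for mitosis, 0.98 for milk proteins and 0.92 for innate defence.

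Immediate early and heat shock genes, which respond within minutes to handling or growth signals, were above 0 in 20 of 28 cases, with a median of 0.15. At an unadjusted p under 0.05, 3 were higher and 0 lower, beside 1.42% and 2.21% of all genes. The groups did not overlap in these 3, as in 1.84% of all genes with day -9 higher. Without SD day -9 replicate 1 the list median was 0.07, and without SD day -24 replicate 2 it was 0.09. CCN1, a matrix protein induced by serum and stretch, read 8.06, 8.35 and 8.11 at day -24 and 9.21, 8.76, 8.71 and 8.81 at day -9 (difference 0.70, SE 0.16). DUSP1, a phosphatase that turns off MAP kinases, read 8.87, 9.11 and 8.86 at day -24 and 9.81, 9.42, 9.19 and 9.47 at day -9 (difference 0.52, SE 0.17). ZFP36, which destabilises cytokine mRNAs, read 6.09, 5.85 and 5.60 at day -24 and 6.28, 6.37, 6.44 and 6.56 at day -9 (difference 0.56, SE 0.20). KLF4 differed by 0.42 and CCN2 by 0.37. In long days CCN1 differed by 0.98, DUSP1 by 0.75 and ZFP36 by 0.07, and the list median was -0.03.

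Among all named genes, the 12 higher and the 12 lower genes of smallest p were taken as leading genes. Their choice used the short-day p, so their values describe and do not test. The higher ones differed by 0.39 to 1.02. PLXNB2, a plexin receptor for semaphorins, read 4.98, 4.64 and 4.58 at day -24 and 5.69, 5.39, 5.56 and 5.84 at day -9 (difference 0.89, 95% interval 0.54 to 1.23). USP4, a deubiquitinating enzyme, read 6.45, 6.08 and 6.02 against 6.76, 6.82, 6.81 and 6.87 (difference 0.63, 0.38 to 0.89). CUL1, the scaffold of SCF ubiquitin ligases, read 6.31, 6.24 and 6.13 against 6.67, 6.64, 6.71 and 6.86 (difference 0.50, 0.25 to 0.74). The second PLXNB2 probe set differed by 0.40, and the other CUL1 probe sets by 0.39 and 0.19.

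RAPGEF1, which activates the small GTPase Rap1, read 6.28, 6.44 and 6.12 at day -24 and 6.83, 6.74, 6.87 and 6.84 at day -9 (difference 0.54). The other RAPGEF1 probe sets differed by 0.08 and 0.26. GPR108 had the largest difference of the higher genes, at 4.31, 4.40 and 3.82 against 5.59, 5.15, 4.46 and 5.58 (difference 1.02). Its day -24 values and the 4.46 at day -9 lay below the lower quartile of each array (4.47 to 4.73), so its size is not exact. The second GPR108 probe set differed by 0.15. FBXO32, a muscle-wasting ubiquitin ligase also known as atrogin-1, differed by 0.59. The tethering factor gene VPS39 differed by 0.62, AKAP8L by 0.76, the caspase inhibitor gene XIAP by 0.39 and CHIC2 by 0.79. Other probe sets differed by 0.70 for FBXO32, by 0.44 for AKAP8L, and by 0.44, -0.01 and 0.38 for CHIC2. XIAP was dim, between 3.05 and 3.57 in the short-day arrays and below the lower quartile of each. Its second probe set differed by 0.15. CCN1 and the dimmer ORAI1 probe set complete the higher genes. In long days 9 of the 12 lay above 0, beside 59.9% of all named genes, with CUL1 at -0.03, RAPGEF1 at -0.16 and CHIC2 at -0.11.

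The lower leading genes differed by -0.32 to -1.09. CCNE2 and BPI, described above, are among them. KNSTRN, a spindle protein, read 8.39, 7.79 and 8.31 at day -24 and 7.14, 7.69, 7.65 and 7.49 at day -9 (difference -0.67). NSL1, a kinetochore subunit, read 7.86, 7.88 and 7.78 against 6.48, 7.67, 7.10 and 7.09 (difference -0.75). CETN4, a centrin, read 8.17, 7.76 and 8.28 against 6.29, 7.48, 7.33 and 7.34 (difference -0.96), or -0.68 without SD day -9 replicate 1. The nuclease gene EXO5 read 7.54, 7.67 and 7.61 against 6.97, 7.28, 7.34 and 7.20 (difference -0.41).

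SGCE, epsilon-sarcoglycan, read 9.15, 9.42 and 9.25 at day -24 and 8.70, 8.89, 8.86 and 8.81 at day -9 (difference -0.46). CAMLG, which inserts tail-anchored proteins into the endoplasmic reticulum, read 9.94, 10.08 and 9.98 against 9.64, 9.69, 9.72 and 9.67 (difference -0.32), though its dimmer probe set differed by 0.46. PNN, a nuclear protein of splicing and cell adhesion, differed by -0.37, UBE2V2 by -0.40, the eotaxin receptor gene CCR3 by -0.45 and RPL19 by -0.56. Their second probe sets differed by -0.15 for PNN, 0.09 for UBE2V2, -0.06 for CCR3 and -0.04 for RPL19, and that of SGCE by -0.05. CCR3 was dim, at 4.27 to 4.49 at day -24 and 3.72 to 4.11 at day -9, beside lower quartiles of 4.47 to 4.73. Of the 7 lower genes with over 1 probe set, 5 had every probe set below 0, and of 9 such higher genes 8 had every one above, CHIC2 being the exception. In long days 7 of the 12 lower genes lay below 0, and KNSTRN (0.37), EXO5 (0.41), BPI (0.39) and CCR3 (0.18) lay above.

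**Figure D4:**
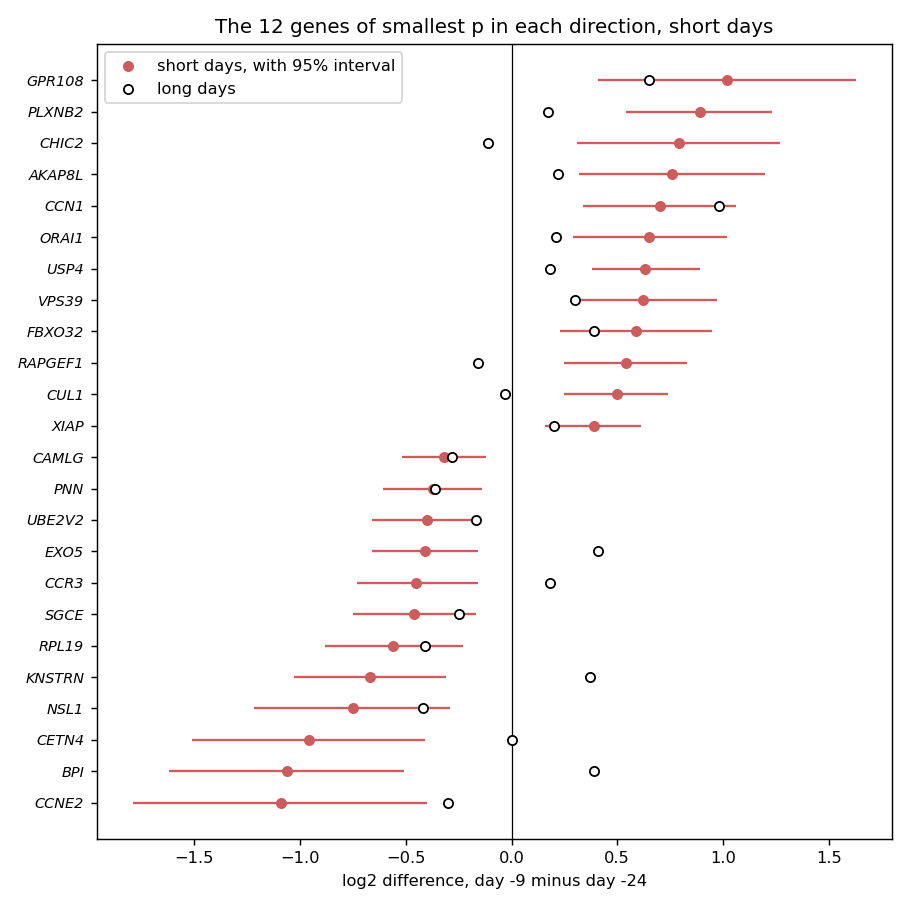
Log2 difference of day -9 minus day -24 for the 12 higher and 12 lower genes of smallest p in short days (red, with the 95% interval of the fit) and the same genes in long days (open circles). PLXNB2 lies at 0.89 in short and 0.17 in long days, EXO5 at -0.41 and 0.41.

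Energy metabolism was close to the background. Oxidative phosphorylation genes were below 0 in 29 of 36 cases, with a median of -0.06 and 0 at an unadjusted p under 0.05. In long days 32 of 36 lay above 0 with a median of 0.15. Of all genes 42.3% lay above 0 in short days and 59.9% in long days. The short-day side turned without SD day -24 replicate 3 (median 0.02, 19 of 36 above 0), and with SD day -9 replicate 1 left out as well (0.09, 29 of 36 above 0). The complex I genes NDUFB5 and NDUFA1 differed by -0.24 and -0.18. Fatty acid oxidation had a median of -0.04, with 10 of 22 above 0. PDK4, which turns pyruvate away from oxidation, differed by 0.73 (SE 0.47), or 0.24 without SD day -9 replicate 1. Ribosomal protein genes lay within -0.13 to 0.83, with a median of -0.04. RPL37 gave the upper bound, at 5.66, 5.60 and 4.36 against 5.82, 6.04, 5.81 and 6.51, and 0.41 without SD day -24 replicate 3. Of 38 ribosomal protein genes 35 were below 0, or 18 without SD day -24 replicate 3 and SD day -9 replicate 1. At an unadjusted p under 0.05, 1 was higher, beside 1.42% of all genes. The RPL19 probe set that differed by -0.56, given above, is not among these 38. Genes of involution and cell death, which are active after milking stops, were above 0 in 15 of 21 cases, with a median of 0.13, and of 0.31 in long days. Without SD day -9 replicate 1 it was 0.02. Of these CTSD, a lysosomal protease, differed by 0.28, TIMP3, an inhibitor of matrix proteases, by 0.39, CTSB by 0.14 and TGFB3 by -0.37.

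Over 12 lists of cell type markers the medians lay between -0.18 and 0.22. Of 167 listed markers 1 was lower and 0 higher at an unadjusted p under 0.05, beside 2.21% and 1.42% of all genes. That marker was COL15A1, a basement membrane collagen, at -0.31. Luminal epithelial markers had a median of 0.10 with 11 of 15 above 0, where KRT19 differed by 0.30 and AQP5 by -0.72. Their score was between -0.17 and -0.02 at day -24 and between -0.06 and 0.35 at day -9. KRT18 read 7.66, 8.94 and 9.09 against 8.73, 8.88, 8.48 and 7.59, and KRT8 differed by 0.28. Both lay well above the lower quartile of their arrays, as did KRT5, between 10.63 and 11.30. Luminal and basal keratin signal was thus read in each array, while the share of each cell type was not measured.

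Myoepithelial markers had a median of 0.22 with 10 of 11 above 0, and 0.04 without SD day -9 replicate 1. CNN1, a contractile protein, read 7.66, 7.78 and 8.13 at day -24 and 9.49, 7.88, 7.73 and 8.02 at day -9, and ACTA2 differed by 0.20. The myoepithelial score ran from -0.25 to -0.05 at day -24 and from -0.09 to 0.62 at day -9. Adipocyte markers had a median of 0.16, with ADIPOQ below the lower quartile in every short-day array (2.98 to 4.03) and FABP4 at 10.46 to 12.17. Fibroblast and matrix markers were below 0 in 21 of 27 cases, with a median of -0.14, or -0.02 without SD day -9 replicate 1, COL1A1 at -0.14 and DCN at -0.19.

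Endothelial markers had a median of 0.12, or 0.02 without SD day -24 replicate 2, and PECAM1 differed by 0.16. Immune cell markers lay below 0: 16 of 20 for T and natural killer cells (median -0.15), 10 of 10 for B and plasma cells (-0.16) and 15 of 17 for macrophages and dendritic cells (-0.18). The T and natural killer cell median was -0.04 without SD day -9 replicate 1, with 9 of 20 above 0. It lay above 0 with limma's array weights (0.05, 13 of 20 above) and without that array and SD day -24 replicate 3 (0.02, 11 of 20). The macrophage median was -0.08 without SD day -9 replicate 1, and the B cell median -0.07 without SD day -9 replicate 2 or SD day -24 replicate 1. CD3E differed by -0.11, CD79A by -0.08 and CD68 by -0.14, with 95% intervals that span 0, while the macrophage marker C1QA differed by -0.47 and CD14 by 0.61. Skeletal muscle and erythrocyte markers each had a median of -0.04. ACTA1 lay between 3.90 and 4.79 and HBB between 3.72 and 6.10. The 3 measured skin markers had a median of 0.04. The neutrophil marker CSF3R and the adipocyte marker PLIN1 have no probe set under their symbols here.

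In SD day -9 replicate 1, the array with the lowest mitosis score, the luminal score was 0.35, the myoepithelial score 0.62, the fibroblast score -0.33 and the T and natural killer cell score -0.43, each the highest or the lowest of the short-day arrays. The part of these cell type markers in the cell cycle and milk protein differences was not tested.

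Over the 34 lists, 16 had a median above 0 and 12 had at least 1 member at an unadjusted p under 0.05. Of all genes 1.42% were higher and 2.21% lower at that p, and the lists hold 3 to 39 measured genes. At these shares a long list can hold such a member without any shift, so the count is not read as a result. In 11 lists the medians were above 0 and in 7 below 0 under both photoperiods, and in 14 they lay on opposite sides. The medians over all named genes also lay on opposite sides, at -0.03 in short and 0.06 in long days. Leaving out a single short-day array turned the side of the median in 14 of the 34, among them 11 of the 15 lists whose median was within 0.1 of 0, and in innate defence, amino acid transport, and prolactin and growth hormone signalling. Across the 24016 probe sets the short-day and long-day differences had a Pearson correlation of 0.08 and a Spearman correlation of 0.07, as a description across probe sets, which are not independent.

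**Figure D5:**
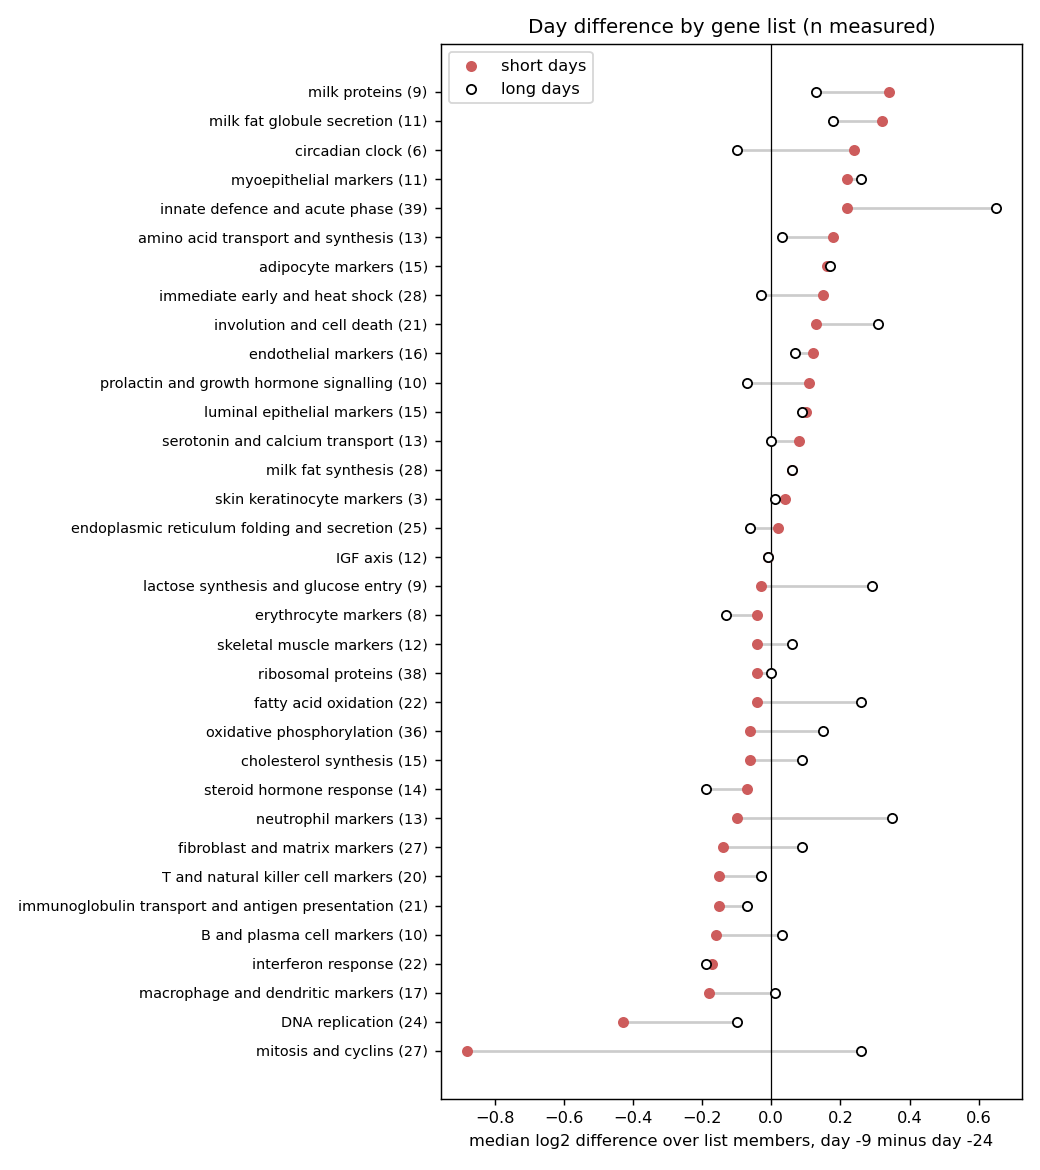
Median log2 difference of day -9 minus day -24 over the measured members of each of 34 gene lists, in short days (red) and long days (open circles). Mitosis and cyclins lie at -0.88 in short and 0.26 in long days, and milk proteins at 0.34 and 0.13.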

How the data were processed

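Each of the 14 arrays was an Affymetrix bovine array hybridised with biotin-labelled cRNA made from 2 µg of total RNA with an RNA integrity number above 7.0, per the labels' protocols. The authors deposited 1 table of log2 values for 24128 probe sets, summarised by robust multi-array average (RMA) per the submitters' processing notes; the software and version are not given in the sources used here. Arrays have no read depth, and their number limits the precision. The values, from 1.49 to 14.0, were used as deposited, without a filter. The 112 control probe sets were left out.

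In R 4.3.3, limma 3.58.1 fitted 4 group means over 14 arrays, so that the groups share 1 estimate of spread, and tested both day differences and their difference (two-sided, Benjamini-Hochberg over 24016 probe sets, threshold 0.05). The procedure was tested on simulated data. Genes were named from the platform annotation, which can be old: 13292 probe sets carry 1 symbol, 86 several and 10638 none. Of the first, 13263 matched RefSeq by gene number. A gene is given by its probe set of highest mean. No genome or sequence table was used here.

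The 34 gene lists hold 592 measured genes. The comparison, lists, tests and alternatives were chosen with earlier results of these data known, and no list was tested as a set. Named genes were the 12 higher and 12 lower of smallest p, up to 5 members of smallest p per list, all members of the milk protein, prolactin, IGF and steroid lists, and defining cell markers. For the leading genes the probe set of smallest p was taken. Alternatives left out each array in turn, or changed the centring, the weighting, the filter or the fit. The setting without SD day -24 replicate 3 and SD day -9 replicate 1 was chosen after seeing the data.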

Additional observations from a re-analysis of the deposited data

Results flagged for a closer look

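In the 4 short-day arrays at day -9, each value of the genes and lists described was checked for 1 array far from the other 3 (a gap, relative to the range, above Dixon's 95% critical value, which chance passes in about 1 in 20 groups). Of 185 groups checked 23 passed, 19 of them through SD day -9 replicate 1. In that array CETN4 (6.29), RRM2 (6.58), NUSAP1 (5.87), CCND1 (5.53), IGF1 (5.30), IGF2 (8.26), AQP5 (6.55) and COL1A1 (11.42) lay below the other day -9 arrays. LTF (13.38), LPL (11.34), STAT3 (11.89), IGFBP5 (9.80), CTSB (12.45), CATHL6 (4.47), LBP (11.38) and CNN1 (9.49) lay above them there. NUSAP1 was between 7.74 and 8.10 in the other 3 arrays, LBP between 8.37 and 8.87, and AQP5, the water channel of secretory epithelium, between 8.23 and 8.30. The scores of amino acid transport (0.10), luminal epithelial markers (0.35) and fibroblast markers (-0.33) stood apart in the same array. SD day -9 replicate 4 stood apart in SLC35A2 (8.71), USP18 (7.26) and the prolactin and growth hormone score (0.28), and SD day -9 replicate 2 in CD68 (6.52).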

How the results depend on the processing

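The count of adjusted calls in short days was 0 under every alternative except without SD day -24 replicate 3, alone or with LD day -9 replicate 4, where it was 1, so leaving out an array gave 0 to 1. That probe set has no gene symbol and differed by -2.29 (limma adjusted p = 0.0277, and 0.0467 without both arrays), against -1.61 over all arrays (adjusted p = 0.970). It read 6.63, 7.29 and 4.93 at day -24 and 4.30, 4.69, 4.82 and 4.88 at day -9. The call thus appears only when SD day -24 replicate 3, the day -24 array close to the day -9 values, is left out. Leaving out each array gave 279 to 1134 probe sets higher at an unadjusted p under 0.05 in short days, lowest without SD day -24 replicate 3 and highest without SD day -24 replicate 1. In long days it gave 368 to 1113 higher and 556 to 1480 lower, and for the difference between photoperiods 244 to 897 higher and 186 to 831 lower. Median centring gave 519 higher and 1408 lower in long days. Without SD day -24 replicate 3 and LD day -9 replicate 4 the difference between photoperiods had 276 higher and 193 lower. Without SD day -24 replicate 3 and SD day -9 replicate 1, a choice made after seeing the data, short days had 261 higher and 291 lower, and the difference 253 higher and 207 lower. The median of amino acid transport ranged from -0.08 to 0.28 and that of serotonin and calcium transport from -0.01 to 0.23 with an array left out. The cause of these changes was not tested. The labels do not say what equal replicate numbers share, and the data do not settle it: deviations of same-numbered short-day arrays correlated at 0.04, 0.22 and 0.25, and those of long-day arrays at 0.33, 0.19 and -0.31. With the replicate block short days had 0 adjusted calls, 709 higher and 349 lower, and the difference between photoperiods 370 higher. Dim probe sets and 3 against 4 arrays limit what can be told.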

Other observations

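Some genes were high in SD day -9 replicate 1 alone. MYH1, a myosin of skeletal muscle, read 7.09 there, 4.14, 4.52 and 3.99 in the other day -9 arrays, and 3.90, 3.87 and 3.67 at day -24. Of its 8 probe sets 4 were on the side of the difference of 1.12, and DES, another muscle gene, read 6.79 in that array against 7.23, 6.60 and 7.22 at day -24. ELF3, an epithelial transcription factor, read 6.09 there and 4.30 to 4.70 in the other day -9 arrays. LEP, leptin, read 5.66 there and 3.01 to 3.99 in the others, and the basal keratin gene KRT17 10.02 and 8.97 to 9.23.

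CDH3, P-cadherin of the basal layer, read 9.30, 8.83 and 8.46 at day -24 and 8.81, 9.26, 9.50 and 9.81 at day -9 (difference 0.48), against -0.51 in long days. POU2AF1, a B cell coactivator, read 7.49, 7.73 and 7.00 at day -24 and 7.04, 6.70, 6.71 and 6.82 at day -9 (difference -0.59). MS4A1, the B cell antigen CD20, read 7.78, 7.30 and 6.76 against 7.82, 6.58, 6.22 and 6.42 (difference -0.52), with SD day -9 replicate 1 apart from the other day -9 arrays. Of the 20 probe sets of smallest p in short days, 11 carry no gene symbol and are not described here.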
